A study of Mus musculus with 5 samples.

Results

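Clusters of neighbouring acetylated regions were assembled from acetyl-histone ChIPseq peaks of CD8+ TM cells, memory-type T cells made in vitro. Peaks of 5 libraries were merged where they shared at least 1 bp, which gave 18410 regions. Regions with a peak in 2 or more libraries were kept as consensus regions, and the start of chromosome 9 before 3.1 Mb was left out, which left 10418. Neighbouring consensus regions were joined into 8923 groups where the gap between them was under a fixed limit, and the widest gap inside a cluster was 12498 bp. The 215 groups that held 3 or more regions are the clusters described here, and the 701 regions inside them are called their parts. They made up 6.73% of the consensus regions. The clusters were chosen by the positions of peaks in all 5 libraries. A library is said to keep a part where a peak of it overlaps the part, and since these peaks also set the rule, the parts kept are a description and were given no test.

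WT cells were compared with TPdh-/- cells, labelled PDH_Mutant, in 2 and 3 libraries. TPdh-/- mice carry a floxed Pdha1 allele, the X-linked gene of the E1 alpha subunit of the pyruvate dehydrogenase complex, and Cre under the Cd4 promoter. Since this promoter is active from the double-positive thymocyte stage, the deletion reaches CD8+ as well as CD4+ T cells. OT-I T cells from adult mice of either sex, which bear a transgenic receptor for an ovalbumin peptide, were activated with that peptide and then cultured in IL-15, and both groups had this treatment. The labels name an antibody to acetylated histones (ab1191) and give "acetyl K18" as the description, and whether the peaks are those of a single lysine could not be settled from them. Nothing in the labels says that libraries of a group came from separate mice. The paper gives a larger number per condition for its ChIPseq without naming mice, and states that its measurements came from discrete samples. The spread between the libraries used here may therefore be technical. The lists held 15962 and 8859 peaks in WT replicates 1 and 2 and 4920, 5419 and 9418 peaks in TPdh-/- replicates 1, 2 and 3. Read numbers were not in the lists, so the depth behind a peak is unknown.

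Acetylation of histone tails loosens chromatin and marks active promoters and enhancers, and the acetyl group is drawn from acetyl-CoA, which the pyruvate dehydrogenase complex makes from pyruvate. Genes that set the identity of a cell are often flanked by several acetylated elements close together, and such stretches are known as stretch enhancers or, where the signal is also ranked, super-enhancers. Acetylated regions also lie close together where many genes are packed into a short stretch of chromosome. Joining regions by distance alone collects both kinds, and no signal was ranked here, so the clusters are not called super-enhancers.

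To show the DNA behind the clusters, the middle 300 bases of a non-promoter part are given for 8 of them on the plus strand of GRCm38. Akap13, Ccl5, Trim33, Bach2 and Sfi1 are among the clusters with the most non-promoter bases, and the part is the longest one with a peak in all 5 libraries. Fasl, Il2ra and Ctla4 are clusters that hold the start of a T cell gene, and the part is the longest non-promoter one with a peak in the most libraries, 5 for Fasl and Il2ra and 2 for Ctla4. These 3 windows were chosen after values were seen. Capitals mark matches on either strand to short motifs of factors known in T cells: RUNX (TGTGGT), ETS (CCGGAAGT or AGGAAGT), AP-1 (TGANTCA), TCF/LEF (CTTTGAT), T-box (AGGTGTGA), NF-kB (GGGANTTCC) and STAT (TTCNNNGAA). A match is a description of the letters and not a bound site.
Fasl, chr1:161766541-161766840: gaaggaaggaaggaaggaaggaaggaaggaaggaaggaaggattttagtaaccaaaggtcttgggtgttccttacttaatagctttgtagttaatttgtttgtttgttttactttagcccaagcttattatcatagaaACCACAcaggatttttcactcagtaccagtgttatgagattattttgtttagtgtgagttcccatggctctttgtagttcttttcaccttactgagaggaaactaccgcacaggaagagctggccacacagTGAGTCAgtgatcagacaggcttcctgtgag
Il2ra, chr2:11636301-11636600: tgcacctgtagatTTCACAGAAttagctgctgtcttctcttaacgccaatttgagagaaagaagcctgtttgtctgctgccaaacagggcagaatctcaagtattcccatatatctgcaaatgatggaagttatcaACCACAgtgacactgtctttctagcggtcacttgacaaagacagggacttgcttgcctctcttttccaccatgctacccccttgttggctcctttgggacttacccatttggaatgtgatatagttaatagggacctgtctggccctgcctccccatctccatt
Ctla4, chr1:60916468-60916767: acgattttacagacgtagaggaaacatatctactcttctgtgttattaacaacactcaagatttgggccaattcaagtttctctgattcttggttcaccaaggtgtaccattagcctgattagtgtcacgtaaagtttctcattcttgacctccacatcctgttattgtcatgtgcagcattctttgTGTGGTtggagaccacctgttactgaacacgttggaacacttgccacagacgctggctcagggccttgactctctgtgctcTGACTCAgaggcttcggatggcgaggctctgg
Ccl5, chr11:83536160-83536459: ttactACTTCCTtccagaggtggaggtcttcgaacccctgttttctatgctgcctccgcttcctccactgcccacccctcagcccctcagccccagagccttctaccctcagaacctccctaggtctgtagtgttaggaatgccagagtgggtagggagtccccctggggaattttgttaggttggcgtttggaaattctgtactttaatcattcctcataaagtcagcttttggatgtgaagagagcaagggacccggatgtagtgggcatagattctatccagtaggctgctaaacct
Trim33, chr3:103385390-103385689: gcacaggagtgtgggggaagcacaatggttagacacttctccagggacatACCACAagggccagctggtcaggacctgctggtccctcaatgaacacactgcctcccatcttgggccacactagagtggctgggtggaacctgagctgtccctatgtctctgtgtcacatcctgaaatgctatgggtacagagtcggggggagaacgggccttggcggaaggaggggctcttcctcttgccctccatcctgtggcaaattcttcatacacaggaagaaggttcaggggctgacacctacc
Bach2, chr4:32335801-32336100: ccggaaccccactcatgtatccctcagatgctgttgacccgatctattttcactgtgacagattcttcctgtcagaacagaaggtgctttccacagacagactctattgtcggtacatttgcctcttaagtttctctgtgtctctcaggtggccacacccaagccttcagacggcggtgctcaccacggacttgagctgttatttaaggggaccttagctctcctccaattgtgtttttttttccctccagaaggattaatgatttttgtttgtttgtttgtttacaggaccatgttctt
Akap13, chr7:75573594-75573893: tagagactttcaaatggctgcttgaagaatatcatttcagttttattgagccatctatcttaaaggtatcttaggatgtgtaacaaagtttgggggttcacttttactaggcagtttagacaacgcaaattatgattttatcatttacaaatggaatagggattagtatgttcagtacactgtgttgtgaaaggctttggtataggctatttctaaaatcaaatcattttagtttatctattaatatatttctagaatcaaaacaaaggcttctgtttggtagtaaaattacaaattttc
Sfi1, chr11:3102439-3102738: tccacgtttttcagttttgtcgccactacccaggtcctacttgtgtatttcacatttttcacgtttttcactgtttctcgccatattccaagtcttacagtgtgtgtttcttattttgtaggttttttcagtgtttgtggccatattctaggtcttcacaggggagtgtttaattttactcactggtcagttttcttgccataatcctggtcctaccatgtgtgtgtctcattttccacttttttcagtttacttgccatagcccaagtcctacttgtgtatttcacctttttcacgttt
The windows of Fasl and Ctla4 each held 1 RUNX and 1 AP-1 match, and that of Il2ra held 1 RUNX and 1 STAT match. Ccl5 held 1 ETS match and Trim33 held 1 RUNX match, while the windows of Bach2, Akap13 and Sfi1 held none of these motifs. The GC content of the 8 windows ran from 30.3% in Akap13 to 56.7% in Trim33. Windows of Ccr7 and Irf4, which also hold the start of a T cell gene, are not printed. Each of them held 1 AP-1 match and no RUNX match. Nor is the window of Olfr161 printed, another cluster among those with the most non-promoter bases, which held none of these motifs.

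Most clusters were small. Of the 215, 173 had 3 parts, 35 had 4, 5 had 5, and the largest had 6 and 11 parts. The median span was 21.4 kb, with quartiles of 18.4 and 26.1 kb and extremes of 11.4 kb at Ldb1 and 83.4 kb near Sfi1. Parts filled a median of 23.5% of the span, the rest being the gaps between them, whose median was 7800.5 bp. A part was 1581 bp wide in the median, against 1419 bp for the 9717 consensus regions outside clusters. The clusters spanned 4.97 Mb in all and their parts covered 1.20 Mb. Each autosome had between 5 and 28 clusters, with the most on chromosome 11, where 11.0% of consensus regions were parts. None of the 165 consensus regions on X and the 5 on Y lay in a cluster.

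The limits of the rule cut through a continuous range. The widest gaps that were still joined were 12498 bp in the Aurkb cluster, 12465 bp in the Kdm6b cluster and 12461 bp in the Ggnbp2 cluster. The closest gaps that were not joined, among those that would have made or enlarged a cluster, were 12522 bp near Rb1, 12523 bp near Laptm5 and 12556 bp near Chd2. Just under the limit on parts, 1009 groups had 2 regions and a median span of 11.2 kb, and 173 groups had 3 regions and a median span of 20.5 kb.

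**Figure D1:**
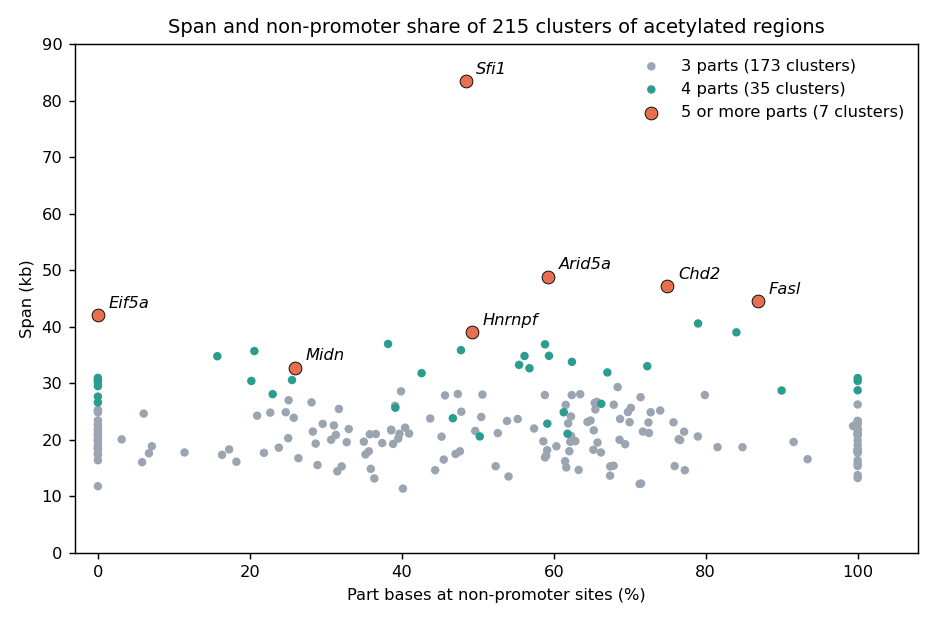
Each point is a cluster, placed by the percentage of its part bases at non-promoter sites (horizontal) and its span in kb (vertical), with colour for the number of parts. The points spread over the whole horizontal range, the quartiles of the spans are 18.4 and 26.1 kb, and the cluster near Sfi1 stands alone at 83.4 kb.

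Non-promoter sites held 50.8% of the part bases, against 37.6% of the bases of the other consensus regions. A promoter was taken as 3000 bp either side of a transcription start site in GENCODE M21. By region, 378 parts (53.9%) touched a promoter window, against 66.1% of the other regions. Of the 323 parts away from promoters, 149 lay in the body of a protein-coding gene, 151 between genes and 23 in other genes. The shares in coding gene bodies were 46.1% of these parts and 49.0% of the other non-promoter regions, and the shares between genes were 46.7% and 45.3%. With promoters of 1000 bp either side the share of part bases at non-promoter sites was 62.7%.

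Clusters fell into 3 classes by the place of their parts. In 44 clusters every part touched a promoter, in 26 no part did, and 145 held both kinds. The first class held 130 start sites of coding genes, a median of 3 in each cluster, whereas the mixed class held 138 and a median of 1. Median spans were 21.4 kb at promoters, 21.8 kb in the mixed class and 20.8 kb away from promoters. In all, 268 coding genes started inside a cluster, and 264 of them had a consensus region within 3000 bp of a start site. No coding gene started in 82 clusters, 61 had 1, 35 had 2 and 37 had 3 or more, and 42 clusters lay wholly within the body of an annotated coding gene. For the Irf8, Cdt1 and Ankrd11 clusters that gene was Gm20388, and for the Tmem154 cluster it was Gm37240. Other coding genes started inside these clusters.

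The clusters of promoters alone mostly covered stretches of packed genes. The largest was the Eif5a cluster on chromosome 11 (69880721 to 69922792), 42.1 kb long with 5 parts and the starts of Kctd11, Acap1, 2810408A11Rik, Neurl4, Gps2 and Eif5a, the last a translation factor. WT libraries kept 5 and 5 of its parts and TPdh-/- libraries kept 3, 3 and 5. Some packed genes serve antigen processing. A cluster of 3 parts on chromosome 17 held Psmb9 and Psmb8, subunits of the immunoproteasome, with Tap1 and Tap2, which carry peptides into the endoplasmic reticulum. Its parts were kept 3 and 2 times in WT and 2, 1 and 3 times in TPdh-/- libraries. The Irf9 cluster on chromosome 14 held Psme1 and Psme2, activators of the proteasome, and Irf9, which relays interferon signals. Its 4 parts were kept 4 and 4 times in WT and 2, 3 and 4 times in TPdh-/- libraries. These antigen-processing clusters were picked out after their values were seen.

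Genes of T cells were looked up in 5 lists with 88 genes of surface and signalling proteins, transcription factors, cytokine receptors, effector molecules and inhibitory receptors. Of these, 6 (6.82%) started inside a cluster, against 268 of 21938 coding genes (1.22%). Acetylation at the start was also more common in the lists, where 59 of the 88 genes (67.0%) had a consensus region within 3000 bp of a start site, against 31.1% of all coding genes. Among genes with such a region, 10.2% of the listed genes and 3.87% of all coding genes started in a cluster. The 6 were Irf4, Irf8, Il2ra, Ccr7, Fasl and Ctla4. None of the 16 surface and signalling genes did, although 13 of them, Cd3d, Cd3e, Cd3g, Cd247, Lck, Zap70 and Lat included, had a region at a start site. Bach2, a listed transcription factor, was not counted because its first cluster began just past the annotated start of the gene. Of lists for other cells, the 8 myeloid markers, the 4 of CD4 and regulatory T cells and the 8 of other tissues had none in a cluster. Regions lay at the starts of Fcgr3 and Spi1 among the myeloid markers, of Cd4 and Foxp3, and of none of the markers of other tissues. The B cell list had Cd79a, which lies between Rps19 and Arhgef1 in a cluster of packed genes and had no region within 3000 bp of its own start.

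Fasl encodes the ligand by which cytotoxic T cells trigger death through Fas, and its cluster had the most parts after that near Sfi1. It spanned 44.5 kb on chromosome 1 (161765663 to 161810135) and had 6 parts, with 86.9% of their bases at non-promoter sites. The parts lay 21.02, 16.23 and 5.90 kb upstream of the start site, at the start site, and 13.8 and 21.8 kb downstream of it. WT replicate 1 kept 6 parts and WT replicate 2 kept 5, while TPdh-/- replicates 1, 2 and 3 kept 3, 1 and 5. The most distal downstream part was the only one with a peak in all 5 libraries. The part at the start site had a peak in both WT libraries and in TPdh-/- replicate 3, and the part 5.90 kb upstream had peaks in the WT libraries alone. Since TPdh-/- replicate 3 kept as many parts as WT replicate 2, the groups overlapped. With each list shortened to its 4920 strongest peaks, the number in the shortest list, the parts kept were 1 and 3 in WT and 3, 1 and 1 in TPdh-/- libraries.

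The Arid5a cluster was the second longest, at 48.9 kb on chromosome 1 (36261694 to 36310559). It had 5 parts around the starts of Neurl3 and Arid5a, an RNA-binding protein that stabilises inflammatory transcripts, and 59.2% of its bases were away from promoters. Both WT libraries kept 5 parts and each TPdh-/- library kept 3. Both parts that touched a promoter had a peak in all 5 libraries, whereas the part 25.6 kb upstream of Arid5a had peaks in WT alone. The missing parts differed between TPdh-/- libraries: replicate 1 lacked the part 12.9 kb upstream, which replicates 2 and 3 kept, and kept the part 44.4 kb upstream, which they lacked. Lists of equal length left 3 and 3 parts in WT and 3, 3 and 2 in TPdh-/- libraries.

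Bach2, a transcription factor that restrains effector differentiation and favours memory, carried 2 clusters of 4 parts along its gene body on chromosome 4. The first (32239059 to 32264718) began just past the annotated start of the gene, spanned 25.7 kb and had 39.2% of its bases at non-promoter sites. The second (32334814 to 32365197) had its parts 97.2 to 125 kb into the gene, spanned 30.4 kb and had all of its bases away from promoters. In both, WT libraries kept 4 and 4 parts and every TPdh-/- library kept 3. In each of them the same part, the fourth of the first cluster and the third of the second, was missing from all 3 TPdh-/- libraries, and both were the narrowest of their cluster at 1021 and 1436 bp. With lists of equal length, all 5 libraries kept 3 parts of the second cluster, and the first was kept 2 and 3 times in WT and 3, 3 and 2 times in TPdh-/- libraries.

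The Ccl5 cluster lay upstream of the gene of a chemokine that memory CD8+ T cells store and release on contact with antigen. Its 3 parts, on chromosome 11 (83534667 to 83560897), sat 5.79, 19.8 and 29.0 kb upstream of the start site and were all at non-promoter sites. Both WT libraries kept 3 parts, and TPdh-/- replicates 1, 2 and 3 kept 1, 1 and 2. The part nearest to the gene had a peak in all 5 libraries, and the middle part had peaks in WT alone. With lists of equal length the order was the other way, with 0 and 0 parts in WT and 1 in each TPdh-/- library.

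**Figure D2:**
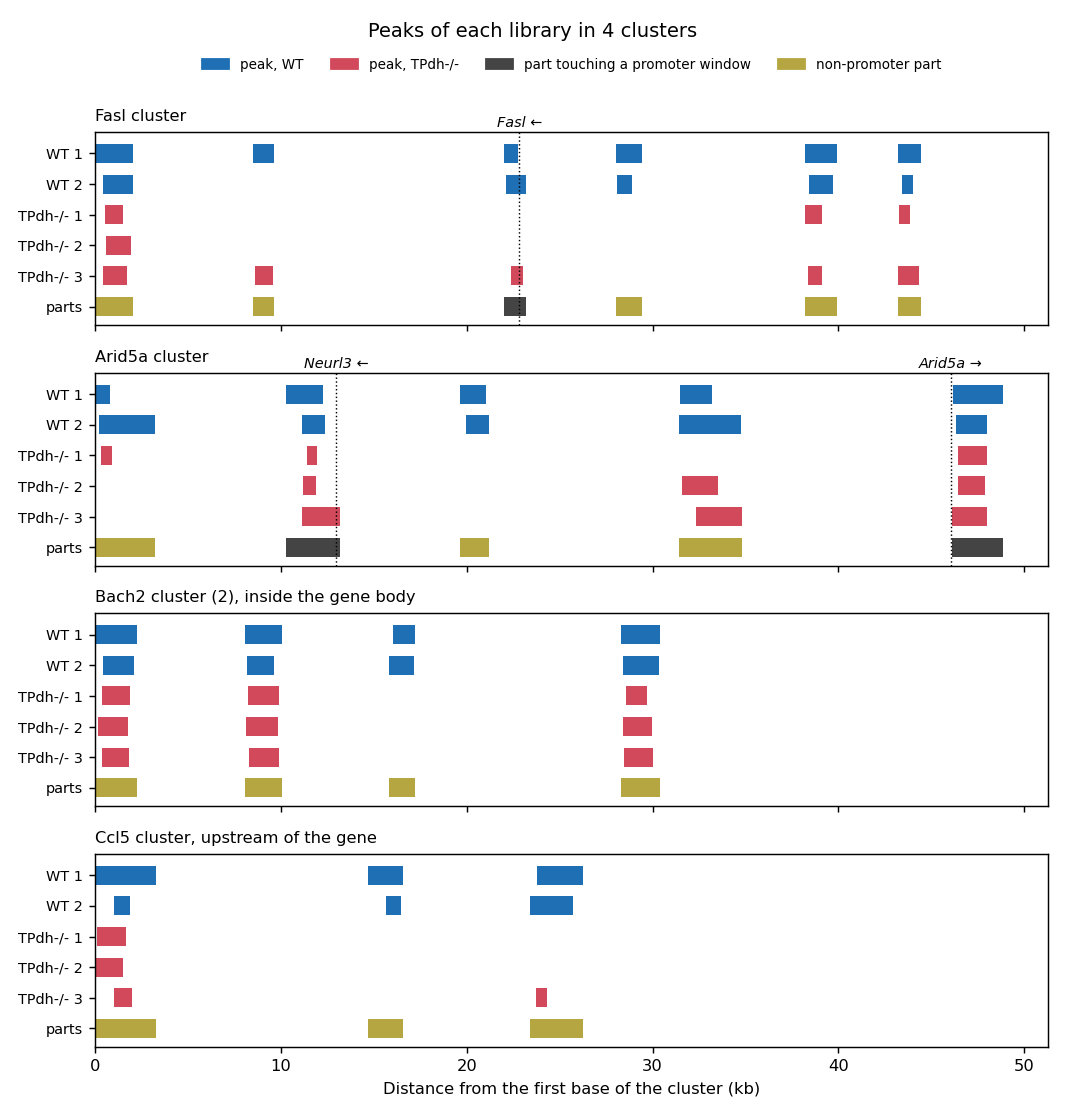
Peaks of each library (bars, 1 row a library) across the Fasl, Arid5a, second Bach2 and Ccl5 clusters, as distance in kb from the first base of the cluster, with the parts in the lowest row and dotted lines at coding gene starts with arrows for the strand. Parts with a peak in all 5 libraries sit beside parts with peaks in WT rows alone, such as the third part of the second Bach2 cluster and the second part of the Ccl5 cluster.

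The other listed genes gave smaller clusters. Ctla4, an inhibitory receptor that competes with CD28 for its ligands, had 4 parts over 30.4 kb on chromosome 1 (60886931 to 60917327), and WT libraries kept 4 and 3 of them against 2, 2 and 4 in TPdh-/- libraries. Il2ra, the alpha chain of the IL-2 receptor, had 3 parts over 18.2 kb on chromosome 2 (11635200 to 11653349), kept 2 and 3 times in WT and 1, 2 and 2 times in TPdh-/- libraries. Its part 6.36 kb upstream of the start had a peak in every library. Ccr7, the chemokine receptor that guides central memory cells to lymph nodes, had 3 parts over 17.7 kb on chromosome 11 (99154141 to 99171885). Both WT libraries kept 3 parts and each TPdh-/- library kept 1, the part 15.9 kb upstream of the start, so that the part at the start site had peaks in WT alone. Every library kept 1 part of the Ccr7 cluster with lists of equal length.

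Irf4 and Irf8 are related transcription factors, the first of which scales with the strength of T cell receptor signals. Irf4 had 3 parts over 19.4 kb on chromosome 13 (30747756 to 30767160), kept 3 and 2 times in WT and 1, 0 and 2 times in TPdh-/- libraries. In the Irf8 cluster WT replicate 2 was the lowest. It had 3 parts over 21.8 kb on chromosome 8 (120714878 to 120736709), kept 3 and 2 times in WT and 3 times in each TPdh-/- library. All parts of Irf8 touched a promoter window, although 2 of them lay 10.6 and 20.6 kb upstream of the gene's own start. In none of the clusters of Ctla4, Il2ra, Irf4 and Irf8 did both WT libraries stand above every TPdh-/- library.

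Among the other large clusters, Hnrnpf, which encodes a splicing factor, had 5 parts over 39.0 kb on chromosome 6, kept 5 and 4 times in WT and 4, 4 and 5 times in TPdh-/- libraries. The cluster nearest to Chd2, a chromatin remodeller whose start lay 30455 bp away, had 5 parts on chromosome 7 (73572285 to 73619432), kept 5 and 5 times in WT and 4, 2 and 4 times in TPdh-/- libraries. Shortened to equal length, the lists kept 3 and 2 of its parts in WT and 4, 2 and 4 in TPdh-/- libraries. Midn, which encodes a protein that takes nuclear proteins to the proteasome, shared a cluster of 5 parts on chromosome 10 with Cirbp, and these were kept 5 and 4 times in WT and 1, 1 and 5 times in TPdh-/- libraries. Among the 7 clusters of 5 or more parts, the WT mean of the share kept exceeded the TPdh-/- mean by 43.3 points in Midn, 41.7 in Fasl, 40.0 in Arid5a, 33.3 in Chd2, 26.7 in Eif5a and 3.33 in Hnrnpf, and the difference was -1.52 points near Sfi1. In Midn, Fasl, Eif5a and Hnrnpf TPdh-/- replicate 3 kept at least as many parts as WT replicate 2.

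Further clusters with long spans or many non-promoter bases lay at genes of varied roles. Akap13 anchors protein kinase A, and its cluster of 4 parts spanned 40.6 kb deep in the gene on chromosome 7 (75571559 to 75612122), kept 4 and 4 times in WT and 2, 1 and 3 times in TPdh-/- libraries. Under equal list length these became 0 and 1 in WT and 2, 0 and 1 in TPdh-/- libraries. The first of 2 clusters at Myh9, the heavy chain of non-muscle myosin, had 4 parts kept 4 and 4 times in WT and 3 times in each TPdh-/- library. Here equal list length turned the order, with 1 and 1 parts in WT and 3, 2 and 2 in TPdh-/- libraries. The cluster nearest to Klf13, a transcription factor of T cells, lay 35006 bp from its start and had 4 parts, kept 4 and 3 times in WT and 2, 1 and 3 times in TPdh-/- libraries. Smad7, an inhibitor of TGF-beta signals, had 4 parts over 36.9 kb on chromosome 18, kept 4 and 4 times in WT and 1, 3 and 4 times in TPdh-/- libraries. The cluster of Ccdc9 on chromosome 7 also held Bbc3, a trigger of apoptosis, and its 4 parts were kept 4 and 2 times in WT and 2, 2 and 3 times in TPdh-/- libraries. A cluster between genes on chromosome 3, 104454 bp from Trim33, had 3 parts, and TPdh-/- replicate 2 kept 1 of them while the other libraries kept 3.

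A cluster on chromosome 6 (41534208 to 41555646) took the name of the trypsin gene Prss2, 12421 bp away, yet it covered 15 segments of the T cell receptor beta locus. These were Trbj1-3 to Trbj1-7, Trbc1, Trbd2, the Trbj2 segments and Trbc2. It had 3 parts, kept 3 and 3 times in WT and 2, 2 and 3 times in TPdh-/- libraries. The parts were 2956, 3149 and 2793 bp wide, and the first 2 had a peak in every library. It was the only cluster with such segments and was picked out after its values were seen.

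In 7 clusters every part had a peak in all 5 libraries, and 153 clusters had at least 1 such part. The 7 were Mapkapk3 with Cish, a cytokine-induced inhibitor of signalling, then Arid3a, Amz2, Ankdd1a, Alpk2, Pgm2 and Platr17, which lay beside Tapbp, a chaperone of peptide loading, and Daxx. Alpk2 had 4 parts and the others had 3. In 62 clusters no part had a peak in all 5 libraries.

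**Figure D3:**
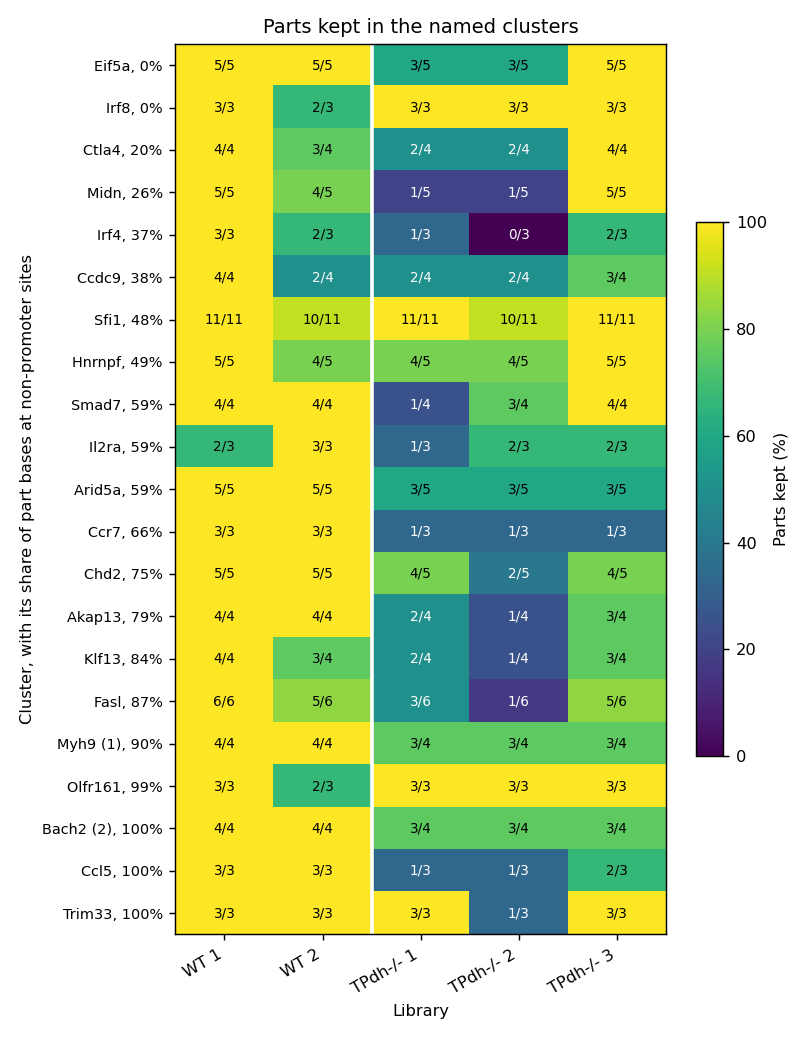
Parts kept of all parts, as numbers and as colour from 0% to 100%, in each library (columns) for the clusters with the most parts, the longest spans, the most non-promoter bases or a listed T cell gene (rows, from the lowest to the highest share of part bases at non-promoter sites). The column of WT replicate 1 is nearly filled, whereas TPdh-/- columns run from 0 of 3 parts of Irf4 in replicate 2 to 11 of 11 parts near Sfi1 in replicates 1 and 3.

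Over all clusters the libraries kept very unequal numbers of parts. WT replicate 1 kept 694 of 701 parts (99.0%) and WT replicate 2 kept 552 (78.7%). TPdh-/- replicates 1 and 2 kept 350 each (49.9%), and TPdh-/- replicate 3 kept 574 (81.9%). The mean of the 2 WT libraries was 88.9% ± 14.3 (SD, n = 2), that of the 3 TPdh-/- libraries was 60.6% ± 18.4 (SD, n = 3), a difference of 28.3 percentage points. It was wider than the SD of either group, yet the groups overlapped, since TPdh-/- replicate 3 kept more parts than WT replicate 2. In an exact rank-sum test 2 libraries against 3 cannot give a two-sided p below 0.2. The other consensus regions showed the same order and a difference of 29.7 points, with means of 87.9% ± 15.0 (SD, n = 2) and 58.2% ± 22.1 (SD, n = 3).

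The order followed the length of the lists. When each list held its 4920 strongest peaks alone, WT replicates 1 and 2 kept 35.4% and 44.8% of the parts, and TPdh-/- replicates 1, 2 and 3 kept 49.9%, 45.4% and 42.5%. The difference then turned to -5.85 points, from means of 40.1% ± 6.66 (SD, n = 2) and 45.9% ± 3.74 (SD, n = 3), against a difference of 0.690 points in the other regions. The -5.85 points were within the SD of the WT libraries and beyond that of the TPdh-/- libraries. At that number of peaks the weakest peak had a −log10 q of 5.88 in WT replicate 1 and of 1.00 in TPdh-/- replicate 1. When the clusters themselves were rebuilt from these shorter lists there were 41 of them and the difference was -10.1 points. The direction of the difference between genotypes therefore depended on whether lists of unequal length were compared as deposited. A list of 4920 peaks can keep at most that many consensus regions, whatever the genotype. Lists of equal length therefore compare where the strongest peaks lie, and cannot show or exclude a loss over all regions.

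**Figure D4:**
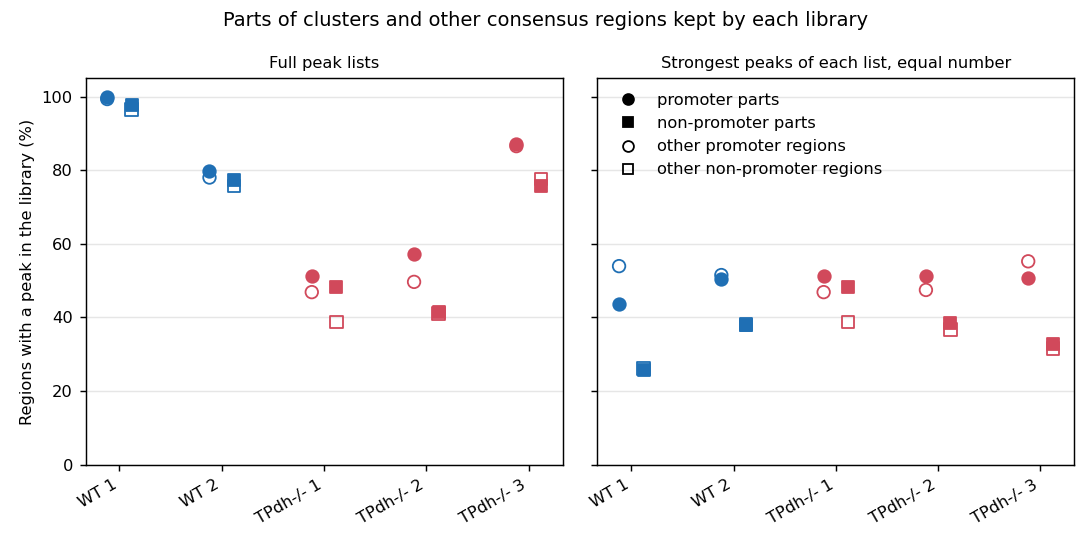
Percentage of regions with a peak in each library, for promoter (circles) and non-promoter (squares) parts of clusters (filled) and other consensus regions (open), WT in blue and TPdh-/- in red. The left panel uses the full lists, where WT replicate 1 is near 100% and TPdh-/- replicates 1 and 2 are near 50%. The right panel uses the 4920 strongest peaks of each list. Non-promoter parts kept then ran from 25.7% in WT replicate 1 to 48.3% in TPdh-/- replicate 1, the longest and the shortest full list. The other promoter regions went the other way in these libraries, with 54.0% and 46.9%. Since each list there can keep at most that many regions, the right panel cannot show a difference over all regions.

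Few clusters were kept whole by the shorter lists. WT replicate 1 kept every part in 208 clusters and WT replicate 2 in 91, against 25, 26 and 116 in TPdh-/- replicates 1, 2 and 3. Of the 173 clusters of 3 parts, TPdh-/- replicate 1 kept all 3 parts in 20, 2 parts in 58, 1 part in 71 and no part in 24. TPdh-/- replicate 2 gave 25, 56, 72 and 20 clusters, whereas TPdh-/- replicate 3 gave 99, 56, 17 and 1. No part was kept by TPdh-/- replicate 1 in 25 clusters of any size and by replicate 2 in 24, and by WT replicate 2 and TPdh-/- replicate 3 in 2 each. In a comparison of the pair with lists of like length, WT replicate 2 kept more parts than TPdh-/- replicate 3 in 51 clusters, as many in 90 and fewer in 74. Clusters called by the same distance rule on each list alone numbered 574 and 111 in WT and 31, 30 and 128 in TPdh-/- libraries.

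In 44 clusters (20.5%) both WT libraries kept more parts than every TPdh-/- library, and in 0 clusters every TPdh-/- library kept more than both WT libraries. Over all 8923 joined groups these shares were 11.3% and 0.0672%. A group with more parts has more ways to separate the libraries: the first share was 10.5% among groups of 1 region, 15.96% among groups of 2, 19.1% among clusters of 3 parts and 26.2% among larger ones. By class it was 3 of 44 clusters with all parts at promoters, 33 of 145 mixed clusters and 8 of 26 clusters away from promoters. Arid5a, Chd2, both Bach2 clusters, Akap13, Ccl5, Ccr7 and the first Myh9 cluster were among the 44. Of the 44, 26 still had a part with a peak in all 5 libraries. With lists of equal length, 3 clusters (1.40%) stood higher in WT and 20 (9.30%) higher in TPdh-/- libraries, against 1.96% and 1.56% of all joined groups. Of all joined groups 7699 had 1 region, and shares by number of regions were not counted for these lists. The 9.30% and 1.56% are therefore not a comparison of groups of like size. Single libraries also decided the count of 44. In clusters rebuilt without WT replicate 1 it was 6 of 88, without WT replicate 2 it was 27 of 162, and without TPdh-/- replicate 3 it was 82 of 149.

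Peaks of both WT libraries without any of TPdh-/- were found at 69 parts (9.84%), against 10.5% of all consensus regions. Peaks of all 3 TPdh-/- libraries without any of WT were found at 0 parts and at 5 of the other regions. All 5 libraries had a peak in 232 parts (33.1%), against 29.5% of the other regions, and only 2 libraries did in 25.8% and 28.1%.

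Parts at promoters were kept more often than parts away from them. TPdh-/- replicate 2 kept 57.1% of promoter parts and 41.5% of non-promoter parts, and TPdh-/- replicate 3 kept 87.0% and 75.9%. In TPdh-/- replicate 1 the shares were 51.3% and 48.3%, and in WT replicates 1 and 2 they were 100% and 97.8% and 79.9% and 77.4%. The same direction was seen in the other consensus regions in every library, for example 49.7% and 41.1% in TPdh-/- replicate 2. The difference between WT and TPdh-/- means was 24.8 points at promoter parts and 32.4 points at non-promoter parts, and with lists of equal length -4.06 and -7.95 points. In the other promoter and non-promoter regions it was 27.7 and 33.7 points, and with lists of equal length 2.87 and -3.55 points. All 5 libraries had a peak in 37.8% of promoter parts, 26.2% of those in coding gene bodies and 28.5% of those between genes.

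Peaks in clusters were not the strongest of their lists. Ranked by −log10 q within its own list, where 100 is the strongest, the peak at a kept part had a median percentile of 58.7 and 49.4 in WT and of 45.6, 46.5 and 49.8 in TPdh-/- libraries. In the other regions it was 65.5 and 54.6 in WT and 53.3, 55.0 and 53.9 in TPdh-/- libraries, higher in each of the 5. At promoters the gap was widest in TPdh-/- replicate 2, with 48.1 in parts and 61.4 in other regions. Away from promoters neither side was higher throughout, with 52.2 in parts and 50.0 in other regions of WT replicate 1 and 37.1 and 42.0 in TPdh-/- replicate 1. The median fold enrichment that MACS2 gave was 2.17 to 2.45 in parts and 2.53 to 2.69 in other regions, over the 5 libraries.

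To measure a library on clusters it had not helped to choose, regions and clusters were rebuilt from the other 4 libraries. The number of clusters was then 88 and 162 for WT replicates 1 and 2, and 199, 200 and 149 for TPdh-/- replicates 1, 2 and 3. The library left out kept 99.3% and 76.6% of the parts in WT and 48.5%, 48.9% and 79.6% in TPdh-/- cells. Against the other regions, parts were kept more often by 1.44 and 2.2 points in WT and by 5.20 and 3.38 points in TPdh-/- replicates 1 and 2, and less often in TPdh-/- replicate 3, by a difference of -1.25 points. The mean was 2.19 ± 2.39 points (SD, n = 5), so the difference was no larger than its spread over libraries. The share kept moved more with the number of other libraries that had a peak: TPdh-/- replicate 1 kept 76.6% of the parts that all 4 others had and 18.03% of those that 2 of them had.

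The 4 clusters within 300 kb of the first sequenced base of a chromosome stood apart from the other 211. They lay near Sfi1 on chromosome 11, Olfr161 on chromosome 16, Vmn1r2 on chromosome 4 and Scaf8 on chromosome 17, and had the highest share of part bases in annotated repeats of any cluster, from 39.5% to 52.8%. The cluster near Sfi1 began 0.502 kb from the first sequenced base (3100503 to 3183938) and its 11 parts were kept 11 and 10 times in WT and 11, 10 and 11 times in TPdh-/- libraries. The 3 parts were kept 3, 2, 3, 3 and 3 times at Olfr161, 2, 2, 1, 1 and 2 times at Vmn1r2 and 3, 2, 3, 1 and 2 times at Scaf8, in the order WT 1, WT 2, TPdh-/- 1, 2 and 3. With lists of equal length, parts near Sfi1 were kept 2, 5, 11, 10 and 6 times in the same order. Those at Olfr161 were then kept 0, 2, 3, 3 and 1 times, at Vmn1r2 0, 0, 1, 1 and 1 times and at Scaf8 0, 0, 3, 1 and 1 times. Words of 31 bases that occur more than once on the 21 chromosomes made up 19.0% of the parts near Sfi1 and 9.51% to 15.6% of those of the other 3. In the median part of the 4 clusters the share was 14.1%, against 0.891% in the parts of the other clusters. Their parts were wide, with a median of 2697 against 1570 bp, and weak, with median folds of 1.77 to 2.01 against 2.18 to 2.46 over the libraries. The Zfp51 cluster, 18449.9 kb from the start of chromosome 17, had a higher share of repeated words, 29.4%. According to the methods, reads that map to several places and reads in blacklisted regions had been removed. Whether the reads there belong to these positions was not tested. Without these 4 clusters the difference between genotypes in parts kept by the full lists was 29.1 points and the share of non-promoter bases 50.2%. The difference without them was not computed for lists of equal length.

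Promoter parts had a median GC content of 53.3% and a ratio of observed to expected CpG of 0.49, against 55.7% and 0.67 in the other promoter regions. Non-promoter parts had 47.1% and 0.21, against 46.4% and 0.21. The motifs named above were counted in 300-base windows at the stretch that most libraries covered. RUNX letters were in 30.3% of non-promoter parts, 28.3% of the other non-promoter regions and 20.03% of all consensus regions. The AP-1 letters were in 14.6%, 10.7% and 7.63%, and AGGAAGT was in 23.5%, 20.2% and 14.3%. Promoter parts had the AP-1 letters in 8.73% of windows, against 5.64% of the other promoter regions, and CCGGAAGT, an ETS motif common in promoters, in 3.70% against 5.78%. STAT, TCF/LEF, T-box and NF-kB letters were in 10.5%, 5.26%, 1.86% and 1.55% of non-promoter parts and in 12.1%, 5.82%, 1.85% and 1.33% of the other non-promoter regions.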

How the data were processed

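ChIPseq of acetylated histones in TM cells was analysed from the broad peak lists deposited for 5 libraries (WT, 2; TPdh-/-, 3). The authors aligned reads to GRCm38/mm10 with BWA-mem 0.7.17, kept uniquely mapping reads, removed blacklisted regions with Samtools 1.15.1, and called peaks for each library with MACS2 2.2.6. No input control is named. The deposited lists hold a fold enrichment, a linear ratio over the background that the authors' caller estimated, and the authors' −log10 p and −log10 q.

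Peaks were merged and joined with Python 3.11.15, numpy 2.4.6 and pandas 2.3.3. Bedtools 2.31.1 gave the same 18410 regions, 8923 groups and 215 clusters, and simulated lists with known clusters were tested on the same functions. A library kept a part where a peak overlapped it by 1 bp. Genes and start sites came from GENCODE M21, and sequence and repeat marks from the GRCm38.p6 genome through pysam 0.24.0. Motifs were 8 strings searched on both strands.

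A cluster is named by the coding gene whose start inside it is nearest to the middle of its longest part, or by the nearest start outside. Named clusters are the 10 with the most parts (ties by span), the 10 longest, the 10 with the most non-promoter bases, those holding a gene of the T cell lists, the 5 at each end of the genotype difference among those of 5 or more parts, and those at the limits of the rule. Clusters named beyond this rule were chosen after their values were seen. The members and gene lists were chosen with earlier results of these data known. No test was made, since the members were chosen on the peaks of all 5 libraries. The number of libraries limits the precision, and without read numbers no counting error is given. The alternatives covered the libraries and parts needed, the gap, the −log10 q, the list length, the chromosomes, the promoter definition, the overlap, a replicate block and each library left out. Leaving out clusters near chromosome starts, and counting the reported parts with lists of equal length, were added after seeing the data.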

Additional observations from a re-analysis of the deposited data

How the results depend on the processing

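The results are given here as clusters, their share of consensus regions, median span, non-promoter bases, genotype difference in parts kept, parts minus other regions, and clusters higher in WT and in TPdh-/- libraries, reported as 215, 6.73%, 21.4 kb, 50.8%, 28.3 points, 1.86 points, 44 and 0. Regions from 1 or more library gave 658 clusters, 12.4%, 4.996 points for parts minus other regions, and 119 and 1 separated clusters. Regions from 3 or more gave 91 clusters, 3.97%, 22.7 kb and 5 clusters higher in WT. A gap of 5 kb gave 8 clusters, 0.240%, 14.1 kb, 5.05 points for parts minus other regions and 3 higher in WT, and a gap of 20 kb gave 484, 16.1%, 30.4 kb and 99 higher in WT. With 2 or more parts there were 1224 clusters, 26.1%, 12.1 kb, and 205 and 1 separated, and with 5 or more parts 7 clusters, 0.403%, 44.5 kb, 11.3 points for parts minus other regions and 2 higher in WT. Peaks with a −log10 q of 2 or more gave 119 clusters, 4.55%, -0.171 points for parts minus other regions and 26 higher in WT, and a −log10 q of 5 or more gave 5 clusters, 0.501%, 5.71% non-promoter bases, -3.99 points and 1 higher in WT.

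Lists of equal length gave 41 clusters, 2.24%, 35.5% non-promoter bases, -10.1 points between genotypes, -0.0341 points for parts minus other regions, and 2 and 4 separated clusters. The reported parts with such lists, an alternative chosen after seeing the data, gave -5.85 points between genotypes, -1.74 points for parts minus other regions, and 3 and 20 separated clusters. Promoters of 1000 bp gave 62.7% non-promoter bases and starts of coding genes alone 59.2%. An overlap of 50% changed nothing, because each region is the union of its peaks. The cause of these changes was not tested, apart from the rules that by construction admit more or fewer regions.

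Leaving out each library gave 88 to 200 clusters, 3.80% to 6.42% of regions, 21.2 to 22.4 kb, 46.7% to 51.4% non-promoter bases, 16.9 to 38.3 points between genotypes, 1.46 to 2.50 points for parts minus other regions, 6 to 82 clusters higher in WT and 0 to 4 higher in TPdh-/- libraries. Without WT replicate 1 there were 88 clusters, 6 higher in WT and 4 higher in TPdh-/- libraries. Without WT replicate 2, 27 were higher in WT, and without TPdh-/- replicate 3, 82. The labels do not say that replicate numbers pair samples, and with the replicate number as a block the genotype difference was 38.9 points. The genotype difference was above 0 in 18 of 20 alternatives, and in the other 2 the lists were of equal length. With clusters near chromosome starts left out, by a choice made after seeing the data, there were 211 clusters and 6.55% of regions. Non-promoter bases were then 50.2%, with 29.1 points between genotypes and 1.45 points for parts minus other regions. The median span and the numbers of separated clusters stayed as reported. Without read numbers, a part without a peak cannot be told apart from a weakly covered one.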

Other observations

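Clusters at other genes of T cell signalling and survival were read out after their values were seen. Mcl1, an inhibitor of apoptosis, had 4 parts over 24.8 kb on chromosome 3, kept 4 and 4 times in WT and 1, 1 and 4 times in TPdh-/- libraries. Bcl2, another such inhibitor, had 3 parts 100144 bp or more from its start within the gene, kept 3 and 3 times in WT and 2, 1 and 2 times in TPdh-/- libraries. Fyn, a kinase downstream of the T cell receptor, had 3 parts in the gene, kept 3 and 3 times in WT and once in each TPdh-/- library. Fyb, an adaptor protein that links the receptor to integrins, had 4 parts over 34.8 kb, kept 4 and 3 times in WT and 1, 0 and 2 times in TPdh-/- libraries. Prkcq, the kinase that carries receptor signals to NF-kB, had 3 parts over 27.5 kb, and TPdh-/- replicate 1 kept 2 of them while the other libraries kept 3. With lists of equal length the Mcl1 cluster was kept 0 and 1 times in WT and 1, 0 and 0 times in TPdh-/- libraries, and the Fyn cluster 0 and 1 times in WT and once in each TPdh-/- library.

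Also read out after its values were seen was the cluster of Irgm2 and Igtp, GTPases that act against intracellular pathogens, with 4 parts over 33.2 kb on chromosome 11, kept 4 and 4 times in WT and 2, 2 and 3 times in TPdh-/- libraries. With lists of equal length it was kept 1 and 2 times in WT and 2, 2 and 1 times in TPdh-/- libraries.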
